A study of Mus musculus with 4 samples.

Results

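The 41 genes described here copy DNA, supply its building blocks and restore its packaging, and they were compared across 3 kinds of mouse innate lymphoid cell, lymphocytes without a rearranged antigen receptor. They were taken from a list drawn up by function, and all 41 were found by Ensembl identifier among the 30731 genes listed in all 4 deposited tables. The natural killer (NK) library came from wild-type C57BL/6 spleen and the ILC2 library from wild-type C57BL/6 bone marrow, each from pooled mice of 8 to 12 weeks. The ILC2 had been grown up with the cytokines IL-25, IL-33, IL-2 and IL-7, each at 10 ng/ml, whereas no culture is given for NK cells. MNK-3, represented by 2 libraries labelled WT, is 1 ILC3-like cell line that goes back to thymocytes of NIH-Swiss fetuses at day 15. It was grown in IL-7 and IL-15 at 10 ng/ml. Cell type therefore coincides with tissue and culture. For MNK-3 it also coincides with strain, age of origin and the set of genes over which reads were counted. These cannot be told apart.

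Before a cell divides, its replication origins are licensed in G1: the origin recognition complex, Cdc6 and Cdt1 load the ring-shaped MCM helicase onto DNA. In S phase Cdc45 and the GINS complex turn that ring into an active helicase, polymerases copy both strands behind it, and the clamp Pcna holds them in place. Ribonucleotide reductase and thymidylate synthase supply deoxynucleotides, and Dnmt1, Uhrf1 and the chromatin assembly factor restore DNA methylation and nucleosomes. Many of these genes are known targets of the E2F factors, which are active in cycling cells. A resting lymphocyte holds little of this machinery, and cytokine-driven or transformed lymphocytes hold much more.

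Reads in the shared genes ranged from 4637812 in NK to 25617762 in MNK-3 replicate 1, and levels are given as CPM, reads scaled to a common total of these. Most markers followed the labelled cell types: Ncr1 had 1114 CPM in NK, Il5 and Il13 had 1334 and 1663 CPM in ILC2, and Il23r had 209 and 306 CPM in MNK-3. Of the 5 ILC2 markers, Il17rb was the exception, with 3.98 CPM in ILC2, 3.88 CPM in NK and up to 25.8 CPM in MNK-3. The defining NK receptor gene Ncr1 was at 0 in ILC2, and Il5 and Il23r were at 0 in NK. MNK-3 replicate 1 stood apart. It had 76.5% of its reads in entries that name no gene, ambiguous reads included, against 25.9% to 49.3% elsewhere. It also had a count in 95.6% of shared genes, against 69.6% to 76.0%. Its 7 T cell markers summed to 156 CPM and its 6 B cell markers to 38.1 CPM, against 42.0 and 1.84 CPM in MNK-3 replicate 2. The ILC2 library held 732 CPM over 5 blood progenitor markers, mostly Hlf (591 CPM) and Cd34 (137 CPM), while the other libraries held 16.0 to 96.8 CPM over the same markers. NK held 117 CPM over the T cell markers and 241 CPM over 8 myeloid markers, of which Itgam, also an NK gene, made up 233 CPM. Markers of T, B, myeloid and erythroid cells summed to at most 42.6 CPM per list in ILC2. The part of these other signals in the results below was not tested.

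The replication genes were lowest in NK, higher in ILC2 and highest in MNK-3. Together they made up 0.236% of gene reads in NK and 0.601% in ILC2, against 0.850% and 1.10% in MNK-3 replicates 1 and 2. The median member stood at 31.3 CPM in NK, 75.6 CPM in ILC2, with 152 and 178 CPM in the MNK-3 libraries. None of the 41 was without reads in any library, and 30 reached 10 CPM in NK, whereas all 41 did so in ILC2 and in both MNK-3 libraries. Per kilobase of exon, the median member lay at the 78.9th percentile of all genes in NK, the 89.99th in ILC2, and the 95.4th and 94.9th in MNK-3. In bulk RNA, fewer cycling cells and less of each transcript per cell cannot be told apart.

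**Figure D1:**
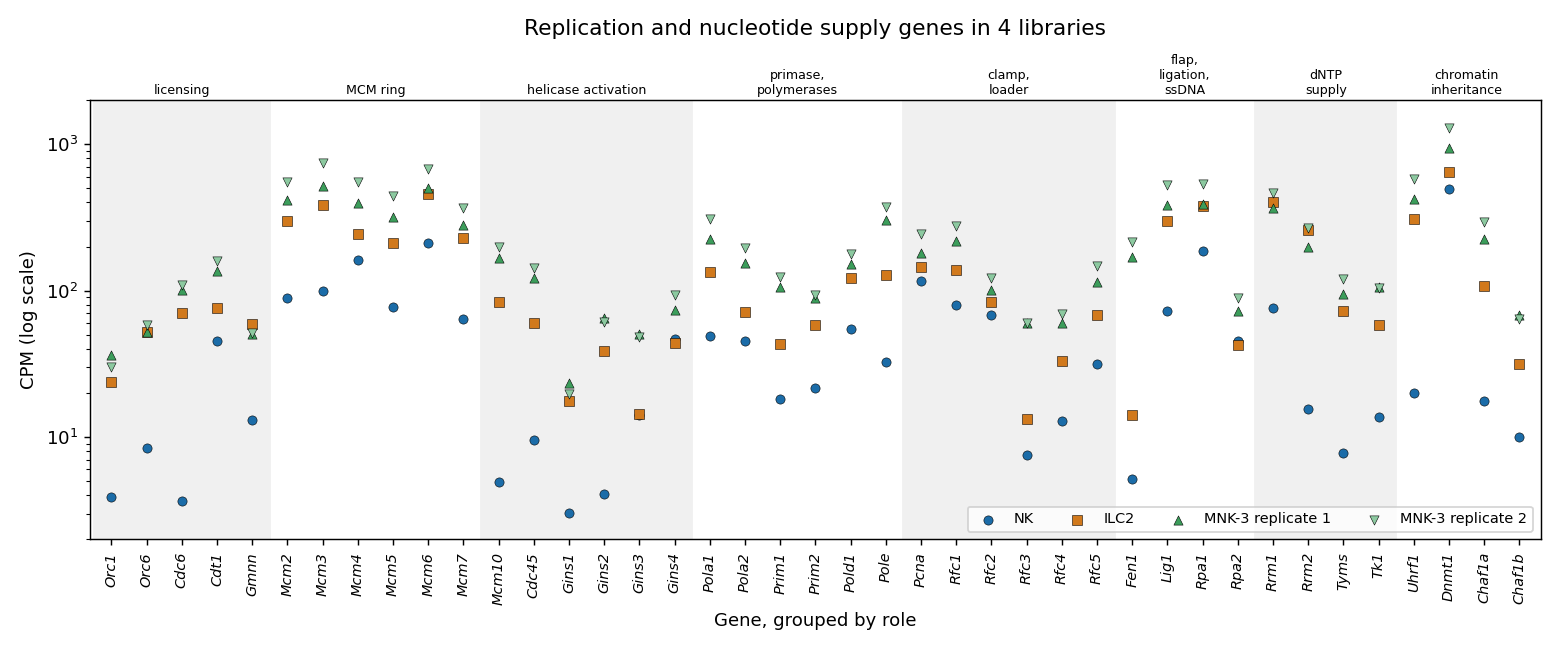
CPM of each of the 41 genes (log axis) in the 4 libraries, grouped by role along the horizontal axis, with 1 symbol per library. The NK symbols lie lowest for most genes, and the MNK-3 symbols lie above the ILC2 symbol except at a few licensing and deoxynucleotide genes; the NK symbol of Gins3 (14.2 CPM) is hidden by that of ILC2 (14.4 CPM).

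Size was taken as a log2 ratio of CPM plus 0.5, averaging the MNK-3 libraries first. In MNK-3 against NK, 37 of 41 members were 2-fold or more higher, where 36.4% of genes with at least 10 CPM in either group were, and none was 2-fold lower, where 10.9% were. The members' median log2 ratio was 2.44, beside 0.58 for all such genes. In ILC2 against NK, 30 members were 2-fold or more higher (22.1% of all such genes) and none lower (16.8%), with a median of 1.46 beside 0.07. In MNK-3 against ILC2, 10 members were 2-fold or more higher (32.4%) and none lower (10.2%), and the median was 0.79 beside 0.50. The last count is no larger a share than among genes at large, and it depended on the MNK-3 library used. Without replicate 1, 19 of 41 members were 2-fold or more higher, against 23.0% of genes. Without replicate 2, 10 of 41 were, against 43.4% of genes. Some other scalings, given at the end, lowered the count.

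By limma voom with Benjamini-Hochberg adjustment over 25283 genes, 10 members were called higher in MNK-3 than in NK, against 0.289% of all genes tested. They were all 6 genes of the MCM ring with Lig1, Rpa1, Rrm1 and Dnmt1. Pole, Dnmt1, Chaf1a and Mcm4 were called higher in MNK-3 than in ILC2 (0.902% of all genes), and Rrm1 and Mcm3 in ILC2 than in NK (0.479%). No member was called lower in any comparison. At an unadjusted p under 0.05 by limma voom there were 17, 18 and 10 members in the order MNK-3 against NK, MNK-3 against ILC2 and ILC2 against NK, where 5.19%, 7.91% and 4.11% of all genes tested were.

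These calls depended on the scaling. With either TMM or median-of-ratios factors, no member was called in any comparison. Mcm3 was called over NK in 5 settings, the one reported included, and the other 9 members in 3 or 4. Whether the MNK-3 libraries are separate cultures is not stated, so p-values measure only the spread between libraries, which may be technical. The fit takes the single NK and ILC2 libraries to vary like the MNK-3 pair. The comparisons also share libraries and are not independent of each other.

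**Figure D2:**
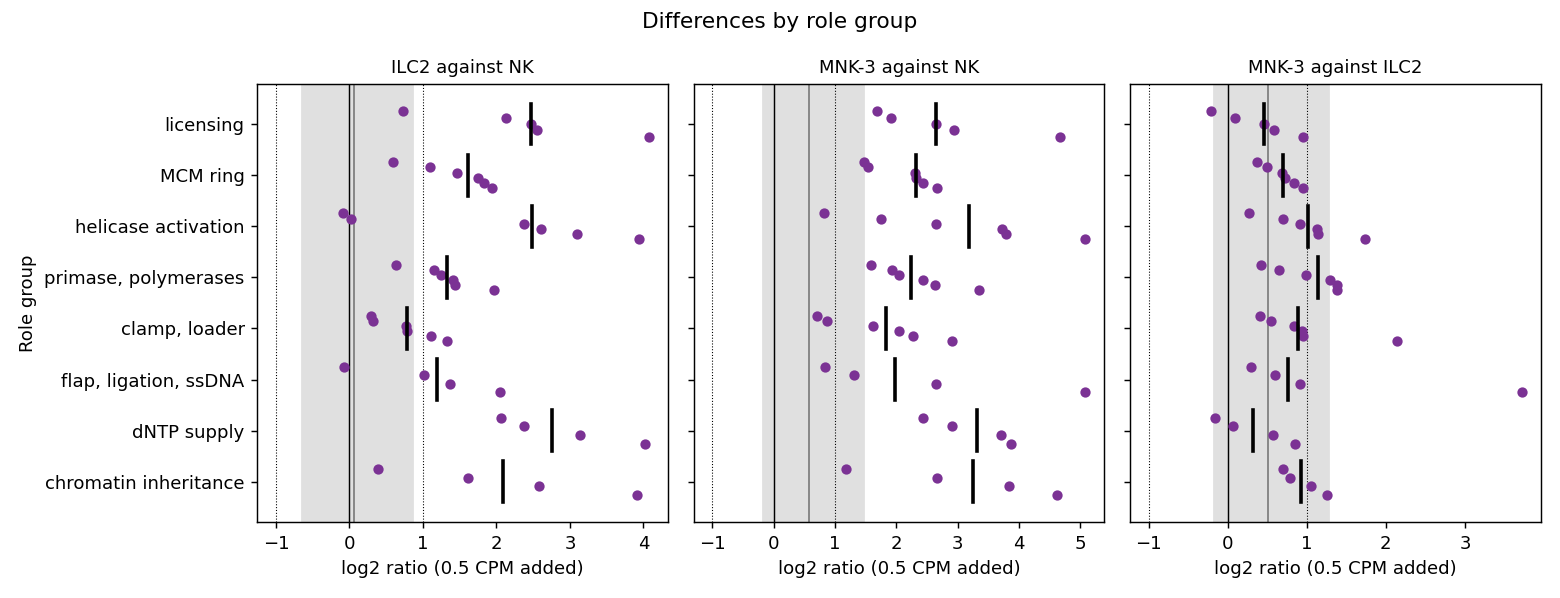
Log2 ratios of the 41 genes in the 3 comparisons, 1 point per gene, by role group; short bars are group medians, the grey band is the middle 50% of all genes with at least 10 CPM in either group, the grey line their median, and dotted lines mark 2-fold. Most points lie right of the band against NK, whereas in MNK-3 against ILC2 most lie within it and Fen1 (3.72) lies farthest out.

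Sequence before the RefSeq start of 4 of these genes is shown because E2F binding words were more frequent in the members' promoters than over all promoters. The words searched on both strands were TTTGGCGC, TTTCGCGC, TTTCCCGC and TTTGCCGC, in RefSeq windows (GRCm38.p6) of 250 bases before to 50 after each start, which exist for 33 of the 41 genes. Each stretch below runs 5′ to 3′ over the 170 bases before the RefSeq start, and capitals mark the words, which overlap each other in Mcm5 and in Mcm6. Mcm5 (chr8:75109339-75109508, plus strand) and Mcm6 (chr1:128359706-128359875, minus strand) encode ring subunits. Orc1 (chr4:108579284-108579453, plus strand) and Cdc6 (chr11:98907981-98908150, plus strand) encode loaders of the ring. The RefSeq start lies 350 bases inside the GENCODE gene for Cdc6 and 31 for Orc1, so the Cdc6 stretch lies wholly within the gene as GENCODE gives it, and it lies 60 and 41 bases before the GENCODE gene for Mcm5 and Mcm6.
Mcm5: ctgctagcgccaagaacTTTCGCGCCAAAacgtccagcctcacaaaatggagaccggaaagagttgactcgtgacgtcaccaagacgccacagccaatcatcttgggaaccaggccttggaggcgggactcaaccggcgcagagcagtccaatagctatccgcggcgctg
Mcm6: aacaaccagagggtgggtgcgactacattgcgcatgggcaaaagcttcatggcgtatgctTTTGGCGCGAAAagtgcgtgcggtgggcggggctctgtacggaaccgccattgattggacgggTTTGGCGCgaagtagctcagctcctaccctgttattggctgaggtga
Orc1: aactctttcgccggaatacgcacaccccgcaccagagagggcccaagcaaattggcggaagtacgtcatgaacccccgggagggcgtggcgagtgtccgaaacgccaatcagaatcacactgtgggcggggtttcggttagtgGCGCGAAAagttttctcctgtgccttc
Cdc6: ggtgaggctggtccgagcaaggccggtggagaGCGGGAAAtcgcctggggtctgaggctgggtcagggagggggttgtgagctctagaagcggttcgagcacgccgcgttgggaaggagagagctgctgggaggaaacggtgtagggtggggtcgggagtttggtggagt

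An E2F word stood in the windows of 14 of the 33 members (42.4%), against 2.61% of all genes with a window. The lists most like this one had similar shares, 42.9% of 14 E2F and DREAM regulators and 30.3% of 33 other replication genes. By window rather than by gene, 14 of 40 and 744 of 32851 held one. The CCAAT box, the site of NF-Y, was in 66.7% of members against 41.1% of all genes. The CHR words TTTGAA and TTCGAA, elements of promoters active in G2 and mitosis, were in 21.2% of members against 21.7% of all genes. The 25 mitosis genes with a window showed the other arrangement, with an E2F word in 1 of 25, CCAAT in 76.0% and CHR in 80.0%. Members' windows were also richer in CpG, with a median of 22 per window against 7 over all windows, and E2F words contain CpG. A match is a description of letters, not of binding, and the motifs and the genes shown were chosen after the data had been seen.

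**Figure D3:**
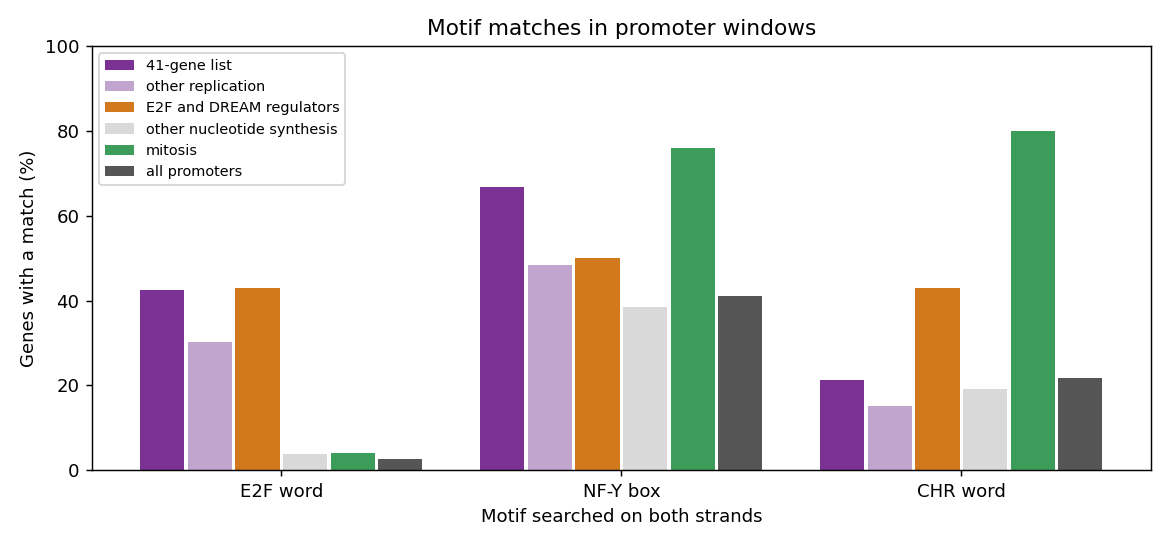
Percent of genes whose promoter windows hold an E2F word, an NF-Y box or a CHR word, for 5 gene lists and for all promoters. The 41-gene list (42.4%), the E2F and DREAM regulators (42.9%) and the other replication genes (30.3%) stand above the rest for the E2F word, and the mitosis list for the CHR word (80.0%).

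The licensing genes had median log2 ratios of 2.64 in MNK-3 and 2.48 in ILC2 against NK, beside 2.44 and 1.46 for all members. Cdc6 had the widest gap of the group. Cdc6, the ATPase that helps load the MCM ring, had 3.67 CPM in NK, 69.8 CPM in ILC2, with 101 and 109 CPM in the MNK-3 libraries. Orc1, the largest origin recognition subunit, had 3.88 CPM in NK, 23.9 CPM in ILC2, with 36.2 and 30.04 CPM in the MNK-3 libraries. Orc6, another subunit, had 8.41 CPM in NK, 51.7 CPM in ILC2, with 52.0 and 57.9 CPM in the MNK-3 libraries. In all 3 genes NK lay far below, while ILC2 and MNK-3 lay near each other. By size Cdc6 was 25.4-fold and Orc1 7.68-fold higher in MNK-3 than in NK.

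Cdt1, the MCM loading factor, had 45.3 CPM in NK, 75.6 CPM in ILC2, with 136 and 159 CPM in the MNK-3 libraries, the smallest gap to NK of the group. Gmnn encodes geminin, which binds and inhibits Cdt1 outside G1, and it had 13.2, 59.0, 50.6 and 51.2 CPM in NK, ILC2 and MNK-3 replicates 1 and 2. The loading factor and its inhibitor thus had unlike patterns. Their ratio within a library, which needs no scaling between libraries, was 3.44 in NK (95% exact binomial interval 2.58 to 4.66), 1.28 in ILC2 (1.14 to 1.43), and 2.69 and 3.10 in MNK-3. Intervals here cover counting error only. No licensing gene passed the limma voom test in any comparison. Of the ORC subunits outside the list, Orc2 was 16.6 CPM in NK and 82.5 CPM in ILC2, whereas Orc3, Orc4 and Orc5 had log2 ratios of 0.04, 0.03 and -0.05 between these cells.

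The MCM ring, the motor of the replicative helicase, had the highest median level of the 8 role groups in NK, 22.8 CPM per kb of exon, and its 6 genes had 64.0 to 212 CPM there. Mcm6 had 212 CPM in NK, 454 CPM in ILC2, with 504 and 672 CPM in the MNK-3 libraries. Mcm4 had 162 CPM in NK, 243 CPM in ILC2, with 393 and 552 CPM in the MNK-3 libraries. Mcm3 had 98.8 CPM in NK, 381 CPM in ILC2, with 515 and 741 CPM in the MNK-3 libraries. All libraries fell in the same order for each of these genes, but the step from NK to ILC2 was 3.85-fold for Mcm3 and 1.502-fold for Mcm4.

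Mcm2 had 88.6, 300.2, 414 and 552 CPM in NK, ILC2 and MNK-3 replicates 1 and 2. Mcm5 had 77.0, 212, 319 and 443 CPM in the same order. Mcm7 had 64.0, 228, 281 and 365 CPM. In these 3 genes as well NK was lowest and MNK-3 replicate 2 highest, so the 6 genes kept 1 order of libraries. All 6 rose by the limma voom test from NK to MNK-3.

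Mcm3 (ENSMUSG00000041859, chr1:20802968-20820312, GRCm38, minus strand) had the smallest p of all members, with a fitted log2 fold of 2.62 (SE 0.50) and an adjusted p of 2.08e-05 by limma voom. Mcm2 (ENSMUSG00000002870, chr6:88883474-88898780, minus strand) followed with 2.41 (SE 0.53) and an adjusted p of 0.000518 by limma voom. The adjusted p of the other 4 lay between 0.00518 (Mcm6) and 0.0245 (Mcm7). Mcm3 was also called in ILC2 against NK (limma voom, log2 fold 1.95 with SE 0.54 and adjusted p 0.0259), and Mcm4 in MNK-3 against ILC2 (limma voom, log2 fold 0.91 with SE 0.28 and adjusted p 0.0431).

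The ring holds 1 copy of each subunit, and its transcripts were of like level per kilobase of exon. The highest subunit exceeded the lowest, Mcm2 in every library, 3.57-fold in NK, 2.36-fold in ILC2, and 2.31-fold and 2.49-fold in MNK-3. Mcm2 has the longest exons of the ring, 6956 bases merged over its annotated transcripts, against 3589 to 4666 for the others. In CPM, Mcm2 lay above Mcm5 and Mcm7 in every library. Mcm6 was highest in NK at 45.5 CPM per kb, and Mcm3 was highest in the other 3 libraries at 102 to 197 CPM per kb.

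Apart from Gins4, at 34.5 CPM per kb, the genes that activate the ring were scarce in NK. The median of the group was 2.35 CPM per kb there, against 22.8 CPM per kb for the ring. Mcm10, which helps to start unwinding, had 4.96 CPM in NK, 82.9 CPM in ILC2, with 168 and 198 CPM in the MNK-3 libraries, 33.6-fold higher in MNK-3 than in NK. Cdc45, part of the active helicase, had 9.49, 60.2, 122 and 142 CPM in the same order. Set against Mcm2 within each library, Mcm10 reads were 0.0560 of Mcm2 reads in NK (interval 0.0351 to 0.0851), 0.276 in ILC2 (0.255 to 0.299), and 0.406 and 0.359 in MNK-3. Mcm10 and Mcm2 thus did not scale together between NK and the cultured cells.

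The 4 GINS subunits, which form a complex with 1 copy of each, had unequal transcripts. Gins2 had 4.10 CPM in NK, 38.6 CPM in ILC2, with 64.9 and 61.2 CPM in the MNK-3 libraries. Gins3 had 14.2 CPM in NK, 14.4 CPM in ILC2, with 50.4 and 48.2 CPM in the MNK-3 libraries. Gins4 had 46.6, 43.7, 73.1 and 92.6 CPM in the same order of libraries. ILC2 therefore lay nearer to MNK-3 for Gins2 and to NK for Gins3 and Gins4, and Gins1, at 3.02 CPM in NK and 17.7 to 23.5 CPM elsewhere, lay with Gins2. Per kilobase the highest subunit, Gins4 in each library, exceeded the lowest 34.5-fold in NK, 6.08-fold in ILC2, and 3.50-fold and 5.30-fold in MNK-3. The lowest in NK was Gins2, with 4097 merged exon bases, whereas in CPM it was Gins1, with 1516. No gene of the activation group passed the limma voom test. Exons of Gins2 lie for 67.3% under the opposite-strand gene Gse1, and how the counting treated strand is not given in the sources used here.

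**Figure D4:**
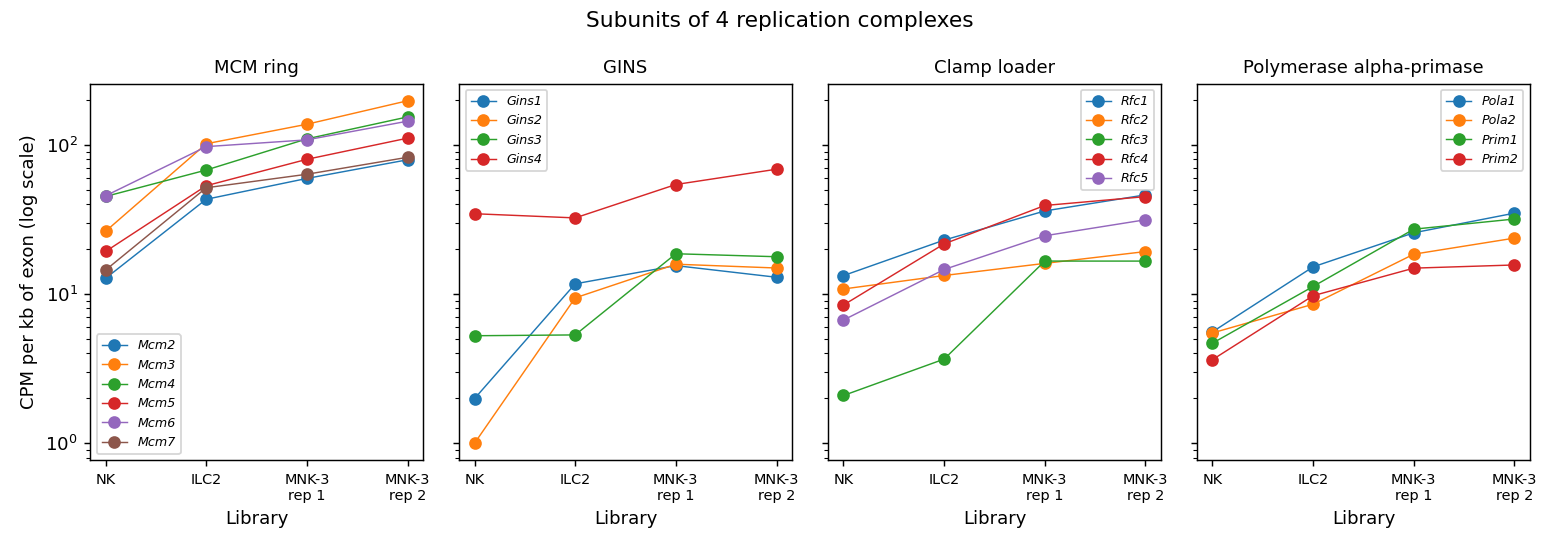
CPM per kilobase of exon (log axis) for the subunits of 4 replication complexes in the 4 libraries, with lines joining the values of 1 gene. The 6 MCM genes stay within 3.57-fold of each other, whereas the GINS genes span 34.5-fold in NK and Rfc3 lies lowest of the clamp loader in NK and ILC2.

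In the primase and polymerase group, only Pole was called higher in MNK-3 than in ILC2. By size, Prim1 (2.61-fold) and Pola2 (2.46-fold) lay near Pole (2.61-fold) in that comparison. Pole encodes the catalytic subunit of the leading-strand polymerase and had 32.6 CPM in NK, 129 CPM in ILC2, with 303 and 369 CPM in the MNK-3 libraries. Both MNK-3 libraries lay above 2 times the ILC2 value. Pole (ENSMUSG00000007080, chr5:110286306-110337474, plus strand) was called in MNK-3 against ILC2, where it had the smallest p of all members (limma voom, log2 fold 1.36 with SE 0.35 and adjusted p 0.00440), but not in MNK-3 against NK (limma voom adjusted p 0.121), although the size there was 10.2-fold.

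Pold1, the catalytic subunit of the lagging-strand polymerase, had 54.8 CPM in NK, 123 CPM in ILC2, with 152 and 178 CPM in the MNK-3 libraries. It had the smallest gap of the group between MNK-3 and NK, 2.99-fold. The ratio of Pold1 to Pole reads was 1.68 in NK (interval 1.37 to 2.07), 0.952 in ILC2 (0.877 to 1.03), and 0.501 and 0.482 in MNK-3. The balance between these polymerase genes thus moved toward Pole from the NK library to the ILC2 library to the MNK-3 libraries. The intervals did not overlap between these, but they cover counting error only, and NK and ILC2 have 1 library each.

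Primase and polymerase alpha, which lay down primers, were more even. Pola1, Pola2, Prim1 and Prim2 lay between 18.1 and 49.2 CPM in NK, between 43.4 and 134 CPM in ILC2, and between 88.5 and 307 CPM in MNK-3. Their levels per kilobase stayed within 1.54-fold to 2.22-fold of each other in every library. Against ILC2, Prim1 and Pola2 were 2.61-fold and 2.46-fold higher in MNK-3, while Pola1, just under the limit, was 1.99-fold higher. Of the 6 genes in the group, 4 had an unadjusted p under 0.05 by limma voom in MNK-3 against NK (5.19% of all genes tested), and none passed after adjustment.

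The clamp and its loader had the smallest median gap between MNK-3 and NK of the role groups, a log2 ratio of 1.84. Pcna, the sliding clamp, had 117 CPM in NK, 146 CPM in ILC2, with 180.0 and 245 CPM in the MNK-3 libraries, and it was 1.82-fold higher in MNK-3 than in NK. Rfc2, a loader subunit, had 68.1, 83.9, 101 and 121 CPM, the smallest ratio to NK of all 41 genes (1.63-fold). Rfc3 went otherwise, with 7.55 CPM in NK, 13.2 CPM in ILC2, and 60.0 CPM in both MNK-3 libraries. It was 4.41-fold higher in MNK-3 than in ILC2, a log2 ratio that stayed between 1.54 and 2.16 over the scalings and single MNK-3 libraries.

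The large subunit Rfc1 had 80.0, 138, 217 and 278 CPM, and Rfc4 and Rfc5 lay between 12.9 and 31.3 CPM in NK and between 60.1 and 147 CPM in MNK-3. None of these 6 genes passed the limma voom test in any comparison. Among genes outside the list, Atad5, which unloads Pcna, had 29.5 CPM in NK, 86.7 CPM in ILC2, with 237 and 286 CPM in the MNK-3 libraries, and was called higher in MNK-3 than in ILC2 (limma voom adjusted p 0.00454).

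The lagging strand is finished by the flap nuclease Fen1 and the ligase Lig1, which had unlike values. Lig1 had 72.0 CPM in NK, 299 CPM in ILC2, with 383 and 524 CPM in the MNK-3 libraries. It rose from NK to MNK-3 (ENSMUSG00000056394, chr7:13277283-13311433, plus strand, limma voom, log2 fold 2.61 with SE 0.61 and adjusted p 0.00122) and missed the threshold in ILC2 against NK (limma voom, log2 fold 2.05 with SE 0.64 and adjusted p 0.0887). Fen1 (ENSMUSG00000024742, chr19:10199132-10204169, minus strand) had 5.17 CPM in NK, 14.1 CPM in ILC2, with 169 and 214 CPM in the MNK-3 libraries. Its 33.9-fold gap to NK and 13.2-fold gap to ILC2 were the largest of all members in both comparisons, and neither passed the limma voom test.

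A property of the tables coincides with the Fen1 gap. Of the 2422 exon bases of Fen1, 1909 (78.8%) lie under Gm10143, an antisense gene listed for NK (16 reads) and ILC2 (7 reads) but not for MNK-3. Among 11 genes with at least 50% of their exons under such an antisense gene, the median log2 ratio of MNK-3 against ILC2 was 2.10, beside 0.50 for the 11242 others, and against NK it was 2.96 beside 0.58. A read over both genes is set aside as ambiguous when counting ignores strand. Whether strand was used is not given, and the part of this in the Fen1 difference was not tested.

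The single-strand binding protein RPA coats unwound DNA. Rpa1, its large subunit, had 187 CPM in NK, 377 CPM in ILC2, with 392 and 536 CPM in the MNK-3 libraries, and was called higher in MNK-3 than in NK (limma voom, log2 fold 1.27 with SE 0.38 and adjusted p 0.0414). Rpa2 had 45.1 CPM in NK, 42.6 CPM in ILC2, with 72.5 and 89.5 CPM in the MNK-3 libraries. ILC2 thus lay near MNK-3 replicate 1 at Rpa1 and near NK at Rpa2, and the ratio of Rpa1 to Rpa2 reads was 8.85 in ILC2 (interval 7.98 to 9.85) against 4.14 in NK (3.56 to 4.84) and 5.40 and 5.99 in MNK-3.

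Deoxynucleotide supply genes were low in NK, and between ILC2 and MNK-3 the reductase genes were near level while Tyms and Tk1 were 1.48-fold and 1.81-fold higher in MNK-3. Rrm1 encodes the large, catalytic subunit of ribonucleotide reductase and had 76.5 CPM in NK, 400.4 CPM in ILC2, with 368 and 468 CPM in the MNK-3 libraries. Rrm2, the radical-bearing small subunit that is made in S phase, had 15.5 CPM in NK, 261 CPM in ILC2, with 199 and 269 CPM in the MNK-3 libraries. For both genes the ILC2 value lay between those of the MNK-3 libraries. The median of the group in MNK-3 against ILC2 was a log2 ratio of 0.32. It was 0.48 without MNK-3 replicate 1 and 0.13 without replicate 2, and -0.02 with TMM and -0.23 with median-of-ratios factors, so its sign depended on the scaling.

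Rrm1 (ENSMUSG00000030978, chr7:102441695-102469771, plus strand) rose from NK to MNK-3 (limma voom, log2 fold 2.42 with SE 0.58 and adjusted p 0.00230) and from NK to ILC2 (limma voom, log2 fold 2.39 with SE 0.61 and adjusted p 0.0101), the smallest p of all members there. Rrm2 was 14.6-fold higher in MNK-3 and 16.3-fold higher in ILC2 than in NK, without passing. The small subunit was also scarce relative to the large one in NK, with a read ratio of 0.203 (interval 0.155 to 0.262) against 0.651 in ILC2 (0.618 to 0.685) and 0.539 and 0.576 in MNK-3.

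Tyms, which makes thymidylate, had 7.76 CPM in NK, 72.1 CPM in ILC2, with 94.4 and 120 CPM in the MNK-3 libraries. Tk1, the salvage thymidine kinase of cycling cells, had 13.6 CPM in NK, 58.2 CPM in ILC2, with 106 and 105 CPM in the MNK-3 libraries. NK was far below the other libraries at both genes. The ratio of Tk1 to Tyms reads was 1.75 in NK (interval 1.14 to 2.71), 0.807 in ILC2 (0.720 to 0.906), and 1.13 and 0.873 in MNK-3. The intervals of the MNK-3 libraries (1.07 to 1.19 and 0.816 to 0.934) did not overlap, so libraries of 1 line can differ by more than counting error.

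Genes that restore methylation and nucleosomes behind the fork split in NK. Dnmt1, the maintenance methyltransferase, had 66.5 CPM per kb in NK, the highest of the 41 genes there, and stood at 490 CPM in NK, 641 CPM in ILC2, with 936 and 1282 CPM in the MNK-3 libraries. Uhrf1, which brings Dnmt1 to hemimethylated DNA, had 20.1 CPM in NK, 308 CPM in ILC2, with 423 and 580 CPM in the MNK-3 libraries. Uhrf1 was therefore 24.4-fold higher in MNK-3 than in NK, and Dnmt1 2.26-fold, just above the 2-fold limit. Uhrf1 reads were 0.0409 of Dnmt1 reads in NK (interval 0.0329 to 0.0503), 0.480 in ILC2 (0.459 to 0.502), and 0.452 in both MNK-3 libraries.

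Dnmt1 (ENSMUSG00000004099, chr9:20907209-20959888, minus strand) rose from NK to MNK-3 (limma voom, log2 fold 1.14 with SE 0.28 and adjusted p 0.00235) and from ILC2 to MNK-3 (limma voom, log2 fold 0.75 with SE 0.22 and adjusted p 0.0217). Chaf1a and Chaf1b, subunits of the chromatin assembly factor, had 17.7 and 9.92 CPM in NK and 108 and 31.3 CPM in ILC2. In MNK-3 replicates 1 and 2, Chaf1a had 224 and 292 CPM and Chaf1b 67.6 and 64.0 CPM. Chaf1a (ENSMUSG00000002835, chr17:56040439-56072289, plus strand) was called in MNK-3 against ILC2 (limma voom, log2 fold 1.22 with SE 0.37 and adjusted p 0.0355), and 52.5% of its exon bases lie under the opposite-strand gene Ubxn6. Chaf1b, 2.08-fold higher there, was not called.

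**Figure D5:**
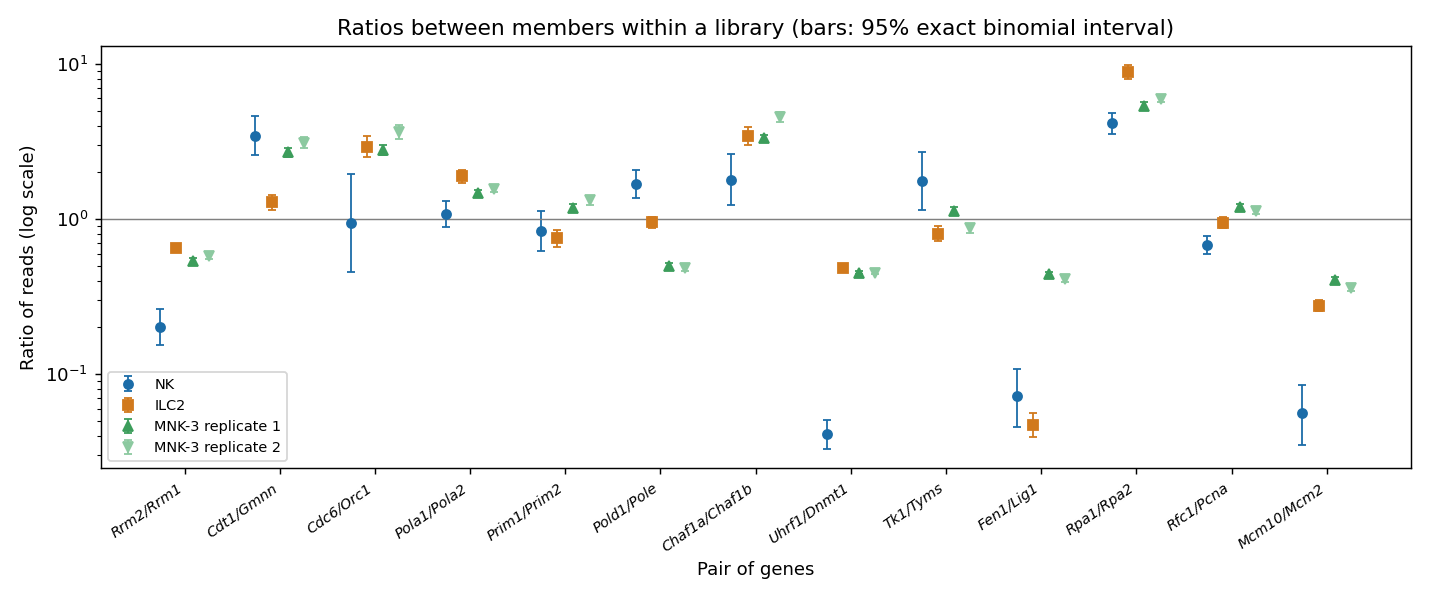
Ratio of reads between 13 pairs of replication genes within each library (log axis), with 95% exact binomial intervals as bars. NK lies apart at Rrm2/Rrm1 (0.203), Uhrf1/Dnmt1 (0.0409) and Mcm10/Mcm2 (0.0560), and both primary cells lie apart from MNK-3 at Fen1/Lig1.

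Lists of neighbouring processes, also drawn up by function, place these values. Of 38 other replication fork and initiation genes, 24 were 2-fold or more higher in MNK-3 than in NK (median log2 ratio 1.75). There were 18 in ILC2 against NK (0.98) and 16 in MNK-3 against ILC2 (0.81). The shares of all genes with at least 10 CPM in either group were 36.4%, 22.1% and 32.4% in the same order. Topbp1, which helps to activate the helicase, was called in MNK-3 against NK (limma voom adjusted p 0.00419). Timeless, Atad5 and Dtl were called higher in MNK-3 than in ILC2. Timeless belongs to the fork protection complex and Dtl directs Cdt1 to degradation, and Dtl had 40.1, 53.9, 205 and 202 CPM in NK, ILC2 and MNK-3 replicates 1 and 2. By size Clspn, Ticrr and Mcm8 led over NK, with log2 ratios of 4.02, 3.94 and 3.46, and Orc5, Top1 and Chtf8 lay at the other end with -0.60, -0.53 and -0.45.

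The 30 other genes of nucleotide synthesis were mostly higher in ILC2 than in NK and, by median with library totals, near level between ILC2 and MNK-3. The list's median was 1.71 in ILC2 against NK, with 22 genes 2-fold or more higher (22.1% of all genes) and 1 lower (16.8%). It was -0.12 in MNK-3 against ILC2, below the 0.50 of all genes with at least 10 CPM in either group. In that comparison 2 genes were 2-fold or more higher (32.4%) and 3 lower (10.2%), neither a larger share than among all genes. The list's median under other scalings was not computed. Impdh1, which opens guanine nucleotide synthesis, had 63.0 CPM in NK, 179 CPM in ILC2, with 26.5 and 9.29 CPM in the MNK-3 libraries. Atic, the last enzyme of purine synthesis to IMP, had 28.5 CPM in NK, 220.0 CPM in ILC2, with 71.1 and 56.8 CPM in the MNK-3 libraries. Both fell from ILC2 to MNK-3 (limma voom adjusted p 7.18e-08 and 3.12e-05). The one-carbon enzyme gene Mthfd2 showed the largest gap of the list to NK, with 3.23 CPM there and 173 to 232 CPM elsewhere. Dut, which acts in thymidylate supply, had a log2 ratio of 3.12 in MNK-3 against NK.

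Samhd1, which degrades deoxynucleotides, went the other way from the supply genes, with 430.4 CPM in NK, 187 CPM in ILC2, with 118 and 153 CPM in the MNK-3 libraries. It fell from NK to MNK-3 (limma voom adjusted p 7.48e-06), whereas Cad, which starts pyrimidine synthesis, rose (limma voom adjusted p 0.0139).

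Of the 19 E2F and DREAM genes, regulators of this programme, 14 were 2-fold or more higher in MNK-3 than in NK, with a median log2 ratio of 1.76, and 10 in ILC2. The shares of all genes with at least 10 CPM in either group were 36.4% and 22.1%. E2f8, a repressor that acts in S phase, had 5.82 CPM in NK, 73.9 CPM in ILC2, with 153 and 205 CPM in the MNK-3 libraries. E2f1, an activator, had 8.84, 36.6, 81.2 and 81.7 CPM. Foxm1, a regulator of mitotic genes, had the largest ratio, with 7.76 CPM in NK, 104 CPM in ILC2, with 260.5 and 354 CPM in the MNK-3 libraries. Rbl2, the pocket protein of resting cells, did not follow, with 463 CPM in NK, 226 CPM in ILC2, with 362 and 492 CPM in the MNK-3 libraries. In MNK-3 against ILC2, Foxm1 and Rbl1 were called higher and E2f4 lower (limma voom adjusted p 0.00266, 0.0119 and 0.049999).

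Mitosis genes had larger ratios to NK than the replication genes. All 30 were 2-fold or more higher than in NK in both MNK-3 and ILC2, against 36.4% and 22.1% of all genes. Their median log2 ratios were 4.48 and 3.87, beside 2.44 and 1.46 for the 41 members. In NK the median mitosis gene had 8.95 CPM, and the mitotic cyclin gene Ccnb1 had 0.431 CPM against 44.4 to 65.4 CPM elsewhere. Kif2c and Cenpf, of the kinetochore, followed Ccnb1 in size, with log2 ratios of 5.63 and 5.31 in MNK-3 against NK. Mki67 and Top2a were called in all 3 comparisons by limma voom. Mki67 had 150.1 CPM in NK and 2014 to 4011 CPM in the other libraries. Incenp was also called higher in MNK-3 than in NK (limma voom adjusted p 0.000437). Cenpf, Kif11 and Prc1 were called higher in MNK-3 than in ILC2 (limma voom adjusted p 0.00796, 0.0435 and 0.0444). The difference between these lists was not tested.

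The MNK-3 libraries did not agree exactly on the members. Replicate 2 was higher at 34 of 41, with a median log2 ratio of 0.34 and a range of -0.27 to 0.52. The median was close to the 0.29 of tested genes at 100 CPM or more in replicate 2, the numerator of the ratio. For the 12465 tested genes under 1 CPM in replicate 2, the median was -2.42. Against NK every member kept its sign in each library alone and under 4 scalings. Against ILC2, 10 of 41 changed sign over the same settings: Orc1, Orc6, Mcm6, Mcm7, Gins1, Pold1, Rfc2, Rpa1, Rrm1 and Rrm2. The median of all genes with at least 10 CPM itself moved from 0.50 to 0.12 with TMM and to -0.14 with median-of-ratios factors, and the members' median moved with it, from 0.79 to 0.47 and 0.24.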

How the data were processed

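RNA-seq was read from 4 deposited tables of 1 library each. Per the labels' protocols, libraries came from a SMARTer stranded total RNA kit and were sequenced as pairs of 38 bp reads. The protocol mentions technical replicates, and whether runs were pooled is not given in the sources used here. Per the submitters' processing notes, the tools were STAR 2.7.8a and HTSeq and the build mm10/GRCm38. The deposited values are of a unit recorded as other: whole-number read counts per gene, not normalized. NK and ILC2 were counted over 53465 genes and MNK-3 over 31053, and only the 30731 shared genes were used. Entries that name no gene (25.9% to 76.5% of reads) were left out. One read was worth 0.216 CPM in NK, the shallowest library, and 0.0390 CPM in MNK-3 replicate 1, the deepest.

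The test was limma voom (limma 3.58.1, R 4.3.3) on counts scaled by library totals, after a filter with a minimum count of 10 and a minimum total of 15, with all 4 libraries in 1 fit of 3 groups and 1 residual degree of freedom. The prior degrees of freedom were infinite, so SEs rest on spread pooled over genes. Tests were two-sided, with Benjamini-Hochberg adjusted p under 0.05 as threshold. The script was tested on simulated data. Size is the log2 ratio after adding 0.5 CPM, counted as 2-fold where the higher group had 10 CPM or more. Exons and coordinates came from GENCODE M21, and exon length is that of all annotated exons of a gene merged. Intervals are exact binomial (scipy 1.17.1). Genes were named by rule: those that passed, whole licensing, MCM and deoxynucleotide groups, and the highest and lowest of each group against NK. The members and lists were chosen with earlier results of these data known. Alternatives were other scalings, filters, CPM added, thinning and left-out libraries.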

Additional observations from a re-analysis of the deposited data

How the results depend on the processing

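The counts of members called by limma voom depended on the processing, while members at 2-fold or more over NK changed little in number. In MNK-3 against NK, where 10 were called, there were 0 with TMM, median-of-ratios or abundant-gene factors, 2 with no filter on low counts, 24 after thinning to the smallest library, and 5 when genes had to reach 10 CPM in a library, a filter added after seeing the data. In MNK-3 against ILC2, where 4 were called, there were in the same order 0, 0, 1, 1, 7 and 0. In ILC2 against NK, where 2 were called, there were 0, 0, 0, 0, 11 and 0. The cause was not tested. The members at 2-fold or more in MNK-3 against ILC2 numbered 5 with TMM and 3 with median-of-ratios factors, with medians of 0.47 and 0.24, and the median in ILC2 against NK was 1.80 with both. Shares of all genes called or at 2-fold under these scalings, filters and thinning were not computed. The counts therefore cannot be set against the genes at large. Leaving out 1 MNK-3 library gave 36 to 38 members at 2-fold or more and medians of 2.22 to 2.60 against NK, and 10 to 19 members and medians of 0.61 to 0.96 against ILC2. Of all genes, 29.0% to 46.4% were 2-fold or more higher against NK, and 23.0% to 43.4% against ILC2. These are values with no test, since no residual degrees of freedom remain. The 39 other recomputed counts and medians stayed within 1.5 times the count or 1 SD of the median. That SD is of the medians found on leaving out either MNK-3 library, so those medians lay within it nearly by construction. For ILC2 against NK the SD was taken from MNK-3 against NK. Depth limits NK most, where Cdc6 rests on 17 reads and Orc1 on 18. No paired analysis was possible because NK and ILC2 have 1 library each.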

Other observations

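A few members with the largest sizes rest on few NK reads, and their fitted SEs are wide: Cdc6 had 17 reads in NK, Mcm10 had 23 and Fen1 had 24, and their limma voom SEs against NK were 4.30, 3.82 and 3.75 on the log2 scale.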
